A study of Mus musculus with 19 samples.

Results

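The nuclear genes of oxidative phosphorylation were followed across sorted alveolar type II (AT2) cells and lung tissue of mice. Members were taken by symbol: protein-coding genes whose name starts with Nduf followed by a, b, c, s or v, with Uqcr, with Cox and a digit from 4 to 8, or with Atp5, and the genes Sdha, Sdhb, Sdhc and Sdhd. Of 36528 gene IDs in the tables, 96 matched and 92 had at least 10 counts summed over the 19 libraries. The other 4 were Cox8c with 0 counts, Cox7b2 and Ndufb4c with 2 counts each and Ndufb4b with 6 counts. By function, 83 of the 92 encode subunits and 9 do not: Ndufaf1 to Ndufaf8 encode complex I assembly factors, and Cox7a2l encodes a factor that joins complexes into supercomplexes. The subunits number 37 in complex I (7 of its catalytic core and 30 accessory), 4 in complex II, 8 in complex III, 17 in complex IV and 17 in complex V. The pattern leaves out Cyc1, a complex III subunit encoded in the nucleus.

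All mice carried SpcCreERT2, a tamoxifen-dependent Cre recombinase under the surfactant protein C promoter, which is active in AT2 cells, and the RosatdTomato reporter. Mice labelled Etv5KO also carried an Etv5 knockout allele paired with an allele flanked by loxP sites; Etv5 encodes a transcription factor of the ETS family. Controls and Etv5KO mice alike received tamoxifen at 100 mg/kg for 5 days and were left for 5 days more, and AT2 cells were sorted as EpCAM+, tdTomato+, CD45- and CD31-. The AT2 groups held 4 (control) and 5 (Etv5KO) libraries and the lung groups 5 each; the design text gives 5 mice per genotype, and the fifth AT2 control was not analysed here. The labels give no age, and nothing in them links an AT2 library to a lung library of the same mouse.

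Oxidative phosphorylation passes electrons from NADH (complex I) and succinate (complex II) through complexes III and IV to oxygen, and the proton gradient built on the way drives ATP synthesis by complex V. Most subunits are nuclear genes, and mitochondrial DNA encodes a few catalytic ones. Several complex IV subunits have paired genes, of which one is used in most tissues and the other mainly in muscle, testis, lung or vascular cells. Promoters of the nuclear genes are known for sites of NRF1, of the ETS factor GABP and of Sp factors.

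The sequences below are the 250 bases before the annotated start of 6 members, from RefSeq in build GRCm38.p6, 5′ to 3′ on the gene's strand; they show a promoter holding 3 of the words searched, a member that stood high in AT2 cells and holds the ETS word, and both genes of 2 isoform pairs described further on. Capitals mark exact matches on either strand to CCGGAAG (core of ETS sites), GCGCA joined to its reverse complement TGCGC (NRF1), GGGCGG (Sp factors) and TGACGTCA (cAMP response element). The matches shown do not overlap each other.
Cox6a1 (chr5:115348959-115349208, minus strand): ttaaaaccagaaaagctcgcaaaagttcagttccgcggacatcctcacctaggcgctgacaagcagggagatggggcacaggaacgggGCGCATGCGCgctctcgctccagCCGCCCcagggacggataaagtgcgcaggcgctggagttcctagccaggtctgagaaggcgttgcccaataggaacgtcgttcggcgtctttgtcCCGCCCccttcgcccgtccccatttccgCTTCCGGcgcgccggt
Uqcr11 (chr10:80406822-80407071, minus strand): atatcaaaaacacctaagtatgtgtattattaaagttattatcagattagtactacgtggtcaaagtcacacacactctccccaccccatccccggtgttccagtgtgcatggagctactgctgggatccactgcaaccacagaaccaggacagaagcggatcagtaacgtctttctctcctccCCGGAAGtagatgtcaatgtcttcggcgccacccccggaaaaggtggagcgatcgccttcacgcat
Cox7a2 (chr9:79759854-79760103, minus strand): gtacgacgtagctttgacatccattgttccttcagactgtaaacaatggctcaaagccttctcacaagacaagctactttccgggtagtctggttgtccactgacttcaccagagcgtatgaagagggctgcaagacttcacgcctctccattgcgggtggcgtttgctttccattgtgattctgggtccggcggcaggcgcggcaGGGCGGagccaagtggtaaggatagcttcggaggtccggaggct
Cox7a1 (chr7:30183921-30184170, plus strand): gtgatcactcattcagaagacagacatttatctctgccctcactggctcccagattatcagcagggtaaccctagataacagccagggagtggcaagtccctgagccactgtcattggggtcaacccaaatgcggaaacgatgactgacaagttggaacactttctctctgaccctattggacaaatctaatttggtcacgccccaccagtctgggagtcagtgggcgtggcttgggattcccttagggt
Cox8a (chr19:7217617-7217866, minus strand): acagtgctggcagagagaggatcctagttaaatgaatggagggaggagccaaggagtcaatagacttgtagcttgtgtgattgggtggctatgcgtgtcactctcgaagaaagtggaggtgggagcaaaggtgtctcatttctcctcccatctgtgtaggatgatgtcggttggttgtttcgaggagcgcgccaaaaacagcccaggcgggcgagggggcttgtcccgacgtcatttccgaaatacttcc
Cox8b (chr7:140900447-140900696, minus strand): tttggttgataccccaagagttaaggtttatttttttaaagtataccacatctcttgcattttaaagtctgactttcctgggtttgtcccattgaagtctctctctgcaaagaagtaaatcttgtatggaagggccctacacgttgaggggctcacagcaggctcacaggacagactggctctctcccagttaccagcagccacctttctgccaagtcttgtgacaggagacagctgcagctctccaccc

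A window was available for 76 of the 92 members. CCGGAAG stood in 14 of them (18.4%), against 10.2% of 17491 genes with windows of the same length. The NRF1 word stood in 5 (6.58%, against 1.21%): Atp5g2, Atp5k, Cox6a1, Ndufa11 and Ndufaf4. TGACGTCA stood in 4 (5.26%, against 2.2%): Ndufa10, Ndufa11, Ndufb2 and Uqcrfs1. GGGCGG stood in 30 (39.5%, against 45.8%). In Cox6a1 the ETS word lay 16 to 10 bases before the start and the NRF1 word 162 to 153 bases before it. In Uqcr11 the ETS word lay 66 to 60 bases before the start. The windows of Cox7a1, Cox8a and Cox8b held none of these words; a match is a string of letters and no evidence of binding.

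Total counts per library ran from 14971793 to 28671262. Etv5 was at 667 ± 36.1 CPM (counts scaled to library size, with TMM factors over all 19 libraries) in control AT2 cells and 713 ± 58.3 CPM in Etv5KO AT2 cells (SD, n = 4 and 5; edgeR adjusted p = 0.505). In lung it was at 103 ± 7.20 and 113 ± 10.8 CPM (SD, n = 5 each; edgeR adjusted p = 0.978). Counts of the whole gene do not show whether the deleted part was read, so Etv5 does not check the labels, and every genotype direction below is one of libraries labelled Etv5KO against libraries labelled control. All 10 AT2 marker genes were higher in sorted cells than in lung.

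The members took 0.606%, 0.547%, 0.629% and 0.575% of all counts in the 4 control AT2 libraries. They took 0.672%, 0.511%, 0.614%, 0.659% and 0.668% in the 5 Etv5KO AT2 libraries. The genotypes overlapped, and the lowest library of each, AT2 control 2 and AT2 Etv5KO 2, stood below the others. In control lung the share was 0.514%, 0.432%, 0.454%, 0.512% and 0.464%, and in Etv5KO lung 0.479%, 0.532%, 0.505%, 0.513% and 0.465%. Complex V took the largest part of the subunit counts in control AT2 cells (0.217% ± 0.00891), ahead of complex I (0.170% ± 0.0136), complex IV (0.0897% ± 0.00822), complex III (0.0493% ± 0.00333) and complex II (0.0465% ± 0.00121; SD, n = 4 each).

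**Figure D1:**
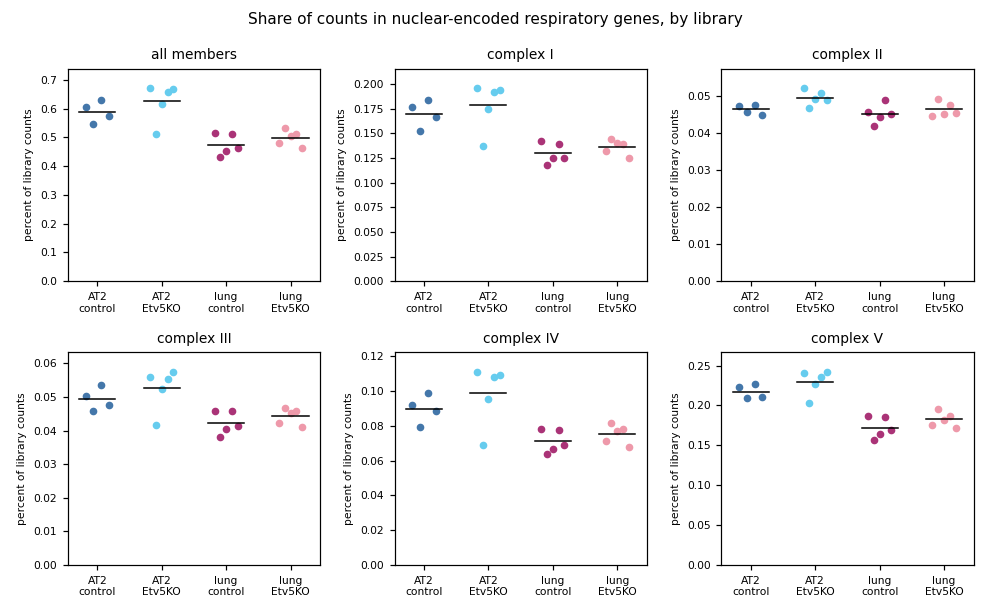
Percent of each library's counts that fell in all 92 members and in the subunits of each complex; points are libraries and lines group means. AT2 Etv5KO 2 (0.511%) and AT2 control 2 (0.547%) were the lowest AT2 libraries, and control lung ran from 0.432% to 0.514%.

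Levels of different genes are compared per transcript length, as the deposited nRPKM (reads per kilobase of transcript and sequencing depth, divided by the authors' size factor). In control AT2 cells Atp5b and Atp5a1, the beta and alpha subunits of the ATP synthase head, and Cox4i1, a core regulatory subunit of complex IV, stood highest, at 329 ± 23.3, 310 ± 20.5 and 306 ± 50.1 nRPKM (SD, n = 4). Atp5b stood above Atp5a1 in each control AT2 library (343, 296, 347 and 332 against 324, 282, 326 and 307 nRPKM). Cox4i1, at 310, 236, 355 and 322 nRPKM in these libraries, stood above each of the other genes in some and below in others. The same 3 genes led in the other groups in the same order; in control lung Atp5b (246 ± 18.4 nRPKM) stood apart from Atp5a1 (179 ± 10.2 nRPKM) and Cox4i1 (171 ± 13.0 nRPKM; SD, n = 5). At the other end, Cox8b, Ndufa4l2 and Atp5g2 were the lowest members of control AT2 cells, at 0.06, 0.31 and 0.43 nRPKM.

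Subunits of 1 complex are assembled in fixed ratios, yet their transcript values spread widely. In the complex I core of control AT2 cells Ndufs1, which carries iron-sulphur clusters, was at 23.4 ± 1.01 nRPKM and Ndufv1, which binds NADH, at 51.5 ± 4.62 nRPKM (SD, n = 4 each). In complex II the flavoprotein Sdha was at 87.1 ± 5.45 and the iron-sulphur subunit Sdhb at 62.2 ± 7.51 nRPKM. In complex III the structural core protein Uqcrc1 was at 77.0 ± 5.77 and the Rieske protein Uqcrfs1 at 55.3 ± 3.71 nRPKM. In complex IV Cox5a was at 86.4 ± 8.01 nRPKM and Cox5b at 10.7 ± 1.83 nRPKM, although both are single subunits of the enzyme.

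Reads placed in more than 1 position were not counted, and many of these genes have processed pseudogenes. Of the 91 members found in a transcript set (GENCODE M21), 11 shared at least 20% of their 50-base stretches with another gene, and these had a median of 10.7 nRPKM in control AT2 cells, with a range from 0.428 to 93.9 nRPKM. Cox5b was among them, with 21.8% shared, as were Atp5l (68.5%), Uqcrb (43.2%), Ndufb4 (37.0%), Atp5g2 (36.7%) and Cox7c (23.0%). The highest of the 11 was Atp5pb, with 22.5% shared and a level of 93.9 nRPKM. The 67 members with under 5% shared had a median of 63.8 nRPKM, with a range from 0.0593 to 329 nRPKM. The 13 between had a median of 68.9 nRPKM. Over the 91 genes, Spearman's rho between the share and the level was -0.20. These bounds were chosen after the values were seen, and the level of a member with a high share is uncertain, whereas its change between groups is measured on the same positions in each library.

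The first question of the series is what changes in AT2 cells labelled Etv5KO. Of 90 members tested, 1 fell and 0 rose (edgeR quasi-likelihood test, adjusted p under 0.05), where 9.87% of all 14939 genes passed, 5.03% higher and 4.84% lower. The median log2 fold change was 0.03 over the members and -0.01 over all genes. At an unadjusted p under 0.05 there were 2 of 90 members, Cox4i2 and Ndufv1, against 3321 of 14939 genes. For 76 of the 90 members the 95% interval of the change lay within 1.5-fold in both directions, so a larger shift is outside the interval for these genes and not for the other 14. Atp5g2 and Cox8b had too few counts to be tested in AT2 cells.

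Cox4i2, the alternative isoform of subunit 4 that is known from lung and from oxygen-sensing vascular cells, was the member that fell. Its level was 3.42, 3.65, 4.11 and 3.02 CPM in control AT2 libraries and at 2.43, 1.16, 1.94, 1.96 and 2.63 CPM in Etv5KO AT2 libraries. The groups did not overlap. Of all genes 12.4% had groups that did not overlap, 5.9% higher and 6.49% lower; of the members this 1 was lower and 0 were higher. In the edgeR fit Cox4i2 changed by -0.81 on the log2 scale (SE 0.22, adjusted p = 0.0361), with a 95% interval from -1.28 to -0.34. These levels rest on 51 to 95 counts per control library and 22 to 51 per Etv5KO library. The call was lost when control 1, control 2, control 3, Etv5KO 3 or Etv5KO 4 was left out, without both AT2 control 2 and Etv5KO 2, and with library size as the only scaling; over 15 alternatives the log2 fold change ran from -0.93 to -0.65 and the adjusted p from 0.00373 to 0.111. Its partner Cox4i1, the isoform of most tissues, differed by a log2 of 0.01 (SE 0.15; edgeR adjusted p = 0.992).

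Other genes that could share reads or cells with Cox4i2 were read beside it. In RefSeq its span overlaps those of Bcl2l1, which encodes an inhibitor of apoptosis, and of the long non-coding RNA Gm32057. Gm32057 was at 28.8, 36.9, 35.4 and 28.8 CPM in control AT2 libraries and at 11.7, 8.18, 9.47, 11.3 and 11.2 CPM in Etv5KO AT2 libraries. It fell by 1.64 on the log2 scale (SE 0.13; edgeR adjusted p = 1.56e-05). In lung Gm32057 was at 4.46, 6.10, 3.75, 3.74 and 3.97 CPM in controls and 1.91, 1.66, 1.85, 1.96 and 1.86 CPM in Etv5KO libraries, a fall of the same direction (log2 -1.25, SE 0.16; edgeR adjusted p = 0.00352). Bcl2l1 had a log2 fold change of -0.18 in AT2 cells (edgeR adjusted p = 0.137). Whether counting used strand is not given in the sources used here, and the part of Gm32057 in the Cox4i2 value was not tested.

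Pericytes and smooth muscle of vessels are a known site of Cox4i2. The summed level of 10 of their markers was 20.9 to 26.1 CPM in control AT2 libraries and 16.7 to 30.5 CPM in Etv5KO AT2 libraries, against 1270 to 1482 CPM in control lung. Of the 10, 7 could be tested in AT2 cells, and 0 passed by edgeR. At an unadjusted p under 0.05 there was 1 of the 7, against 3321 of 14939 genes. Rgs5, Higd1b and Cnn1 were below 0.5 CPM in both AT2 groups. In bulk libraries, fewer cells of a type and less RNA per cell cannot be told apart.

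**Figure D2:**
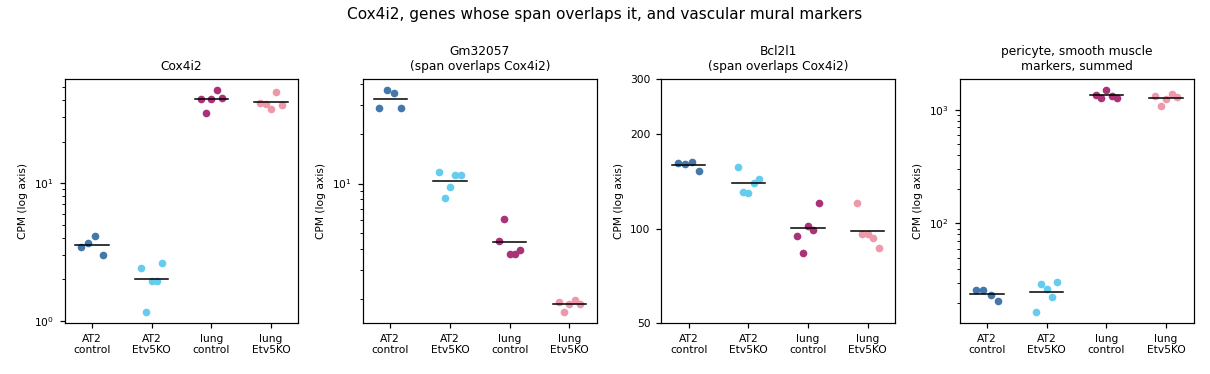
CPM per library of Cox4i2, of Gm32057 and Bcl2l1, whose spans overlap it, and of 10 pericyte and smooth muscle markers summed, on log axes; points are libraries and lines group means. In AT2 cells Cox4i2 and Gm32057 are lower in the libraries labelled Etv5KO, while the marker sums overlap (20.9 to 26.1 against 16.7 to 30.5 CPM).

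Ndufv1, which holds the NADH-binding site, was at 92.3, 77.3, 96.0 and 87.3 CPM in control and 106, 91.4, 97.6, 103 and 100 CPM in Etv5KO AT2 libraries, with overlap. Its log2 fold change of 0.19 (SE 0.08; edgeR adjusted p = 0.169) passed only with library size as the scaling (0.25, adjusted p = 0.0275; over 15 alternatives 0.0275 to 0.294). Cox6a2, known as the heart and muscle isoform of subunit 6a, was at 91.4, 61.1, 80.2 and 83.0 CPM in control and 108, 64.3, 97.3, 115 and 99.1 CPM in Etv5KO AT2 libraries. Its log2 fold change of 0.30 (SE 0.16; edgeR adjusted p = 0.311) became 0.42 without Etv5KO 2 (adjusted p = 0.0426) and 0.32 without both low AT2 libraries (adjusted p = 0.0316), a range over 15 alternatives of 0.0316 to 0.494. The remaining members ran from Ndufaf6, an assembly factor, at -0.33 to Ndufa4l2 at 0.52, and none of these passed.

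In lung tissue, where AT2 cells are 1 of many cell types, 0 of 90 members passed by edgeR, against 0.415% of 17098 genes. DESeq2 called 0 as well. At an unadjusted p under 0.05 there were 4 of 90 members and 944 of 17098 genes. The 4 members all had a positive sign: Cox6a2 (log2 0.40), Cox6b2 (0.39), Ndufa9 (0.14) and Cox6a1 (0.12). Cox6b2, known as the testis isoform of subunit 6b, was at 16.6, 14.4, 14.3, 10.3 and 13.6 nRPKM in control lung and 17.3, 20.01, 22.7, 13.6 and 17.6 nRPKM in Etv5KO lung, with overlap (edgeR adjusted p = 0.738). No member had groups that did not overlap, against 0.977% of genes higher and 0.544% lower. The median over the members was 0.05, and 84 of the 90 intervals lay within 1.5-fold. Cox4i2 was at 40.5, 32.5, 40.8, 47.2 and 41.7 CPM in control lung and 38.0, 37.3, 34.5, 45.6 and 37.1 CPM in Etv5KO lung (log2 -0.08, 95% interval -0.29 to 0.13; edgeR adjusted p = 0.978).

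The genotype effect in AT2 cells was set against that in lung by an interaction term over all 19 libraries. Of 91 members tested, 0 passed by edgeR, against 1.59% of 17698 genes (0.791% higher, 0.802% lower). At an unadjusted p under 0.05 there was 1 member, against 1765 of 17698 genes. DESeq2 called 1, and in both cases it was Cox4i2. Its difference was -0.75 (SE 0.21, 95% interval -1.197 to -0.30; edgeR adjusted p = 0.0953). The fall of Cox4i2 in AT2 cells is therefore not shown by edgeR to differ from the value in lung. The members next in order of p were Ndufa10 (-0.19, adjusted p = 0.528), an accessory subunit, then Ndufb3 (-0.32), Cox7a1 (0.45), Atp5g1 (-0.39), Cox7a2l (-0.22), Ndufaf6 (-0.29), Ndufa4l2 (0.51), Atp5c1 (-0.16) and Ndufs5 (-0.40), none past the threshold.

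**Figure D3:**
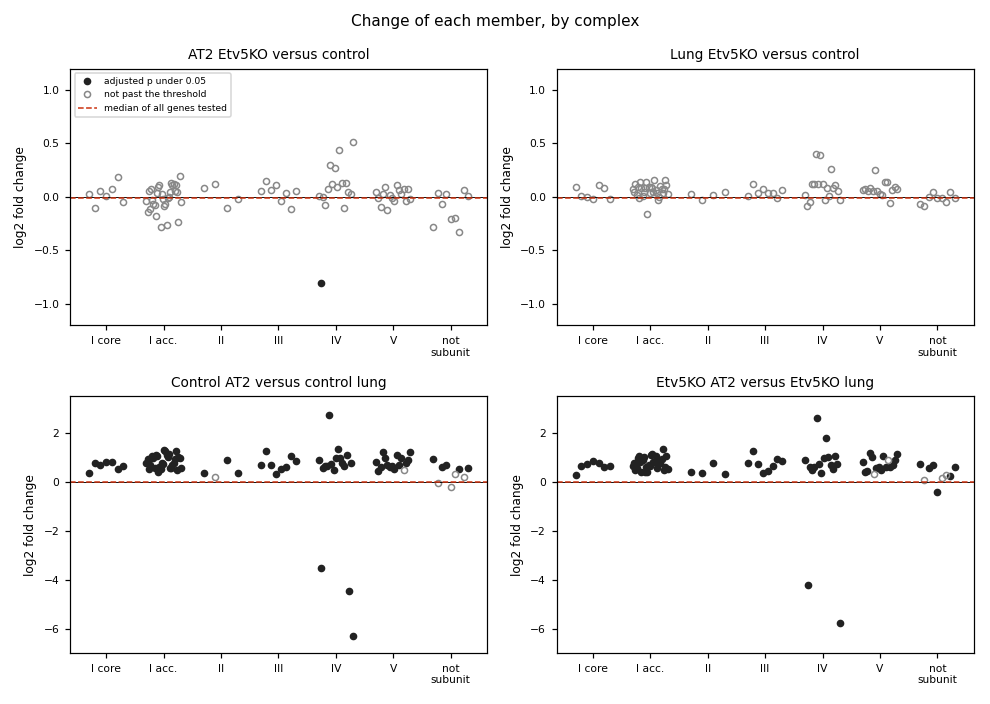
Log2 fold change of each member tested, by complex, in 4 comparisons; filled points passed edgeR at an adjusted p under 0.05, open points did not, and the dashed line is the median of all genes. In the genotype panels Cox4i2 at -0.81 is the filled point, and the open ones run up to Ndufa4l2 at 0.52 in AT2 cells and Cox6a2 at 0.40 in lung; the tissue panels lie mostly above 0, with medians of 0.71 and 0.69.

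Baseline levels were compared between control AT2 cells and control lung, a comparison of 1 sorted cell type with a mixture that contains it. Of 91 members tested, 82 were higher in AT2 cells and 3 lower (edgeR adjusted p under 0.05), against 74.5% of 17118 genes called, 35.6% higher and 38.9% lower. The median log2 difference was 0.71 over the members and -0.01 over all genes. In 75 members every control AT2 library stood above every control lung library, as in 30.6% of all genes, and in 3 every one stood below, as in 35.9%. The Etv5KO libraries, which share none with the controls, gave 82 higher and 3 lower of 90 tested, where 78.0% of 16740 genes were called (38.3% higher, 39.7% lower), with a member median of 0.69. There 52 members stood above lung without overlap (29.7% of all genes) and 3 below (35.9%). Of the 90 members tested both times, 79 were higher in both and 2 lower in both, Ndufa4l2 and Cox4i2. The share of all genes called in both is not given here, so these 2 counts have no background beside them.

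Scaling sets the size of this difference. With library size alone the median of all genes moved to -0.42, the member median to 0.29, and the calls to 52 higher and 5 lower. The share of all genes called under library size is not given here, so these calls have no background beside them. Relative to the median of all genes the members stood 0.72 higher under TMM and 0.71 under library size. Under library size Ndufs1, Sdha and Uqcrc1 had values below 0 (-0.05, -0.06 and -0.08), none past the threshold.

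By complex, all 37 complex I subunits were higher in control AT2 cells, with a median of 0.77. Ndufb11, an accessory subunit of the membrane arm, had the largest value of complex I: 69.0, 50.1, 80.9 and 75.4 nRPKM in control AT2 libraries against 29.1, 24.7, 29.6, 31.9 and 30.1 nRPKM in control lung (log2 1.29, SE 0.13; edgeR adjusted p = 2.02e-06). Ndufb2 (1.28) and Ndufc2 (1.25), also accessory, came next, while the core subunits Ndufs1 and Ndufv1 stood at 0.35 and 0.51. The 8 complex III subunits were all higher (median 0.71), from Uqcrc1 at 0.33 to Uqcr11 at 1.25. Uqcr11, whose promoter is printed above, was at 98.4, 67.0, 102 and 92.2 nRPKM in control AT2 libraries and 39.6, 31.5, 36.6, 46.1 and 40.3 nRPKM in control lung, without overlap.

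Complex II, which also serves the citric acid cycle, had the lowest median of the 5 complexes, 0.36. Sdhc (0.88), a membrane anchor, Sdhd (0.37) and Sdha (0.35) were higher, and Sdhb was not called (0.21, 95% interval -0.00 to 0.43; edgeR adjusted p = 0.0674). In complex V 15 of 16 tested were higher, with a median of 0.74; Atp5pb (1.24), of the peripheral stalk, and Atp5d (1.22), of the central stalk, had the largest values and Atp5b (0.47) and Atp5md (0.49, not called) the smallest. Atp5a1 was at 324, 282, 326 and 307 nRPKM in control AT2 libraries and 174, 166, 181, 194 and 181 nRPKM in control lung (log2 0.83, SE 0.08; edgeR adjusted p = 1.05e-06). Of the 9 members that are no subunits, 5 were higher; Cox7a2l (0.92) led, and Ndufaf1 (-0.05), Ndufaf4 (-0.23), Ndufaf5 (0.33) and Ndufaf7 (0.20) were not called. In Etv5KO libraries Ndufaf4 was lower in AT2 cells (-0.41, SE 0.10; edgeR adjusted p = 0.00213).

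The 3 members that were lower in AT2 cells were all isoforms of complex IV. Ndufa4l2, the hypoxia-induced relative of Ndufa4, was at 0.367, 0.163, 0.503 and 0.198 nRPKM in control AT2 libraries and 26.3, 23.3, 23.6, 29.9 and 27.0 nRPKM in control lung, 78.6-fold higher in lung (log2 -6.30, SE 0.22; edgeR adjusted p = 2.16e-10). Cox4i2 was at 4.46, 4.73, 5.26 and 3.90 against 53.4, 43.2, 54.3, 63.0 and 55.9 nRPKM, 11.3-fold higher in lung (log2 -3.50, SE 0.13; edgeR adjusted p = 4.04e-10). Cox8b, the muscle isoform of subunit 8, had 2 counts over the control AT2 libraries and 81 over control lung, a ratio of 27.3 (95% exact interval 7.32 to 229, counting error only). All 10 pericyte and smooth muscle markers were also lower in AT2 cells. So were all 7 endothelial, 6 fibroblast, 6 macrophage and 5 red blood cell markers, and 6 of 7 ciliated cell markers. The part of these cell types in the 3 values was not tested.

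Cox6a2 went the other way. It was at 132, 87.3, 113 and 118 nRPKM in control AT2 libraries and at 15, 15.2, 21.8, 19.7 and 15.9 nRPKM in control lung, without overlap, 6.58-fold higher in AT2 cells (log2 2.72, SE 0.14; edgeR adjusted p = 5.63e-09) and 6.17-fold higher in Etv5KO libraries. Its partner Cox6a1, the isoform of most tissues, was at 236, 169, 249 and 210 nRPKM in the same AT2 libraries and 140, 128, 138, 152 and 145 nRPKM in control lung (log2 0.66). Muscle markers were read beside it. The 9 cardiac markers summed to 11.9 to 13.4 CPM in control AT2 cells and 40.0 to 87.9 CPM in control lung; of 7 tested 5 were lower in AT2 cells, and the values ran from -6.26 to 0.55 on the log2 scale. Of 7 skeletal muscle markers all were below 0.5 CPM in control AT2 cells, as were 6 in control lung, so these markers were low in both; Myh1, Myh2 and Myh4 were at 0 in control AT2 cells and Myh4 in control lung. The span of Cox6a2 overlaps that of Itgad, an integrin gene, which was also higher in control AT2 cells (log2 1.94) at 9.34 to 14.2 CPM, against 61.1 to 91.4 CPM for Cox6a2.

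Cox7a1, the heart and muscle isoform of subunit 7a, was higher in AT2 cells as well. It was at 7.32, 4.76, 8.14 and 5.31 nRPKM against 2.89, 2.79, 2.75, 2.38 and 2.11 nRPKM in control lung (log2 1.34, SE 0.21; edgeR adjusted p = 0.000107), well under its partner Cox7a2 at 94.6, 74.3, 108 and 95.5 nRPKM in AT2 cells. Cox6b2 was at 18.5, 20.5, 21.7 and 14.3 nRPKM in control AT2 libraries (log2 0.49 against lung; edgeR adjusted p = 0.0153), and Cox6b1 at 199, 153, 219 and 176 nRPKM. Cox8a, the common isoform of subunit 8, was at 257, 185, 261 and 242 nRPKM, 2.15-fold above control lung. Ndufa4 was at 64.1, 51.9, 80.2 and 63.8 nRPKM in AT2 cells and 40.7, 34.5, 36.9, 46.3 and 37.8 nRPKM in control lung, so that in lung Ndufa4l2 came near it and in AT2 cells it did not. Of the 3 genes for the ATP synthase c ring, Atp5g3 was at 193 ± 18.05 nRPKM in control AT2 cells (SD, n = 4) and Atp5g1 at 2.73, 1.79, 2.64 and 2.62 nRPKM; Atp5g2 had 2 to 9 counts in these libraries.

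**Figure D4:**
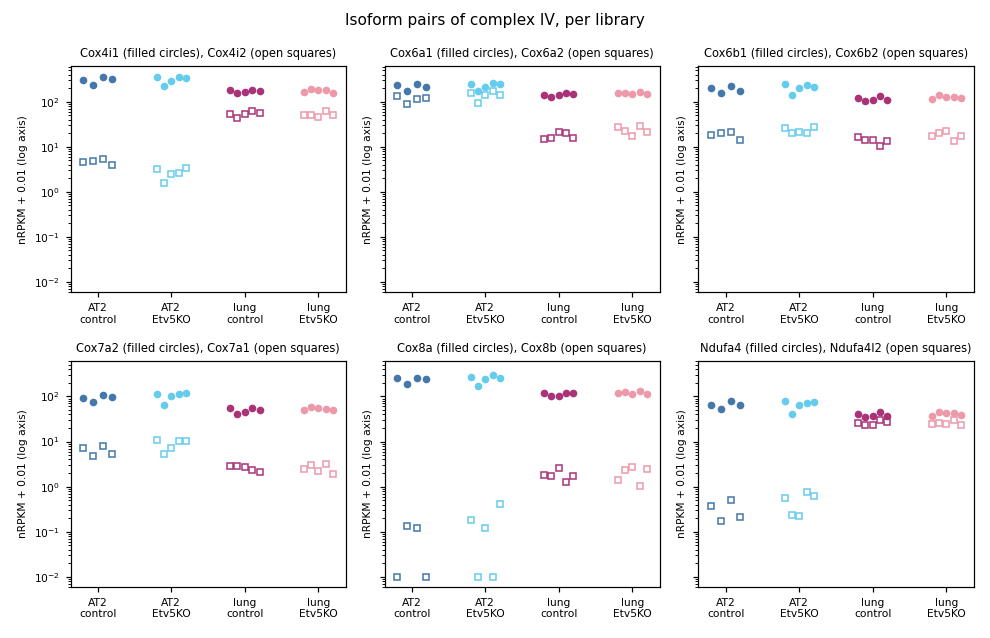
nRPKM + 0.01 of 6 isoform pairs of complex IV in each library, on a shared log axis; filled circles are the isoform of most tissues and open squares the alternative one. Cox6a2 (87.3 to 132 nRPKM in control AT2 cells) lies near Cox6a1, while Cox4i2, Cox8b and Ndufa4l2 are lower in AT2 cells than in lung.

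The members are short genes. The 12243 genes at a mean of at least 5 CPM were put in 10 bins of equal size by the length recovered from the authors' values, bin 1 being the shortest. Of 82 members at that level 60 fell in bin 1 and 13 in bin 2. All genes of bin 1 had a median log2 difference between control AT2 cells and control lung of 0.51, down to -0.18 in bin 10. The 60 members of bin 1 had a median of 0.78 and the 13 of bin 2 had 0.59, where all genes of bin 2 had 0.29. In Etv5KO libraries bin 1 had 0.46 and its 60 members 0.75. The part of length in the difference between AT2 cells and lung was not tested.

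In some libraries nearly all members lay on 1 side of their group's mean. In AT2 Etv5KO 2 all 82 members lay below their group mean, with a median log2 deviation of -0.45, and in AT2 control 2, 79 of 82 did (-0.29). In AT2 control 3, 81 of 82 lay above it (0.21). In AT2 Etv5KO 1 and AT2 Etv5KO 4, 79 and 78 lay above. In lung control 4, 80 lay above, and in lung control 2, 80 lay below. The members split in some other libraries: 40 lay above and 42 below in AT2 Etv5KO 3, and 36 and 46 in AT2 control 4. So they did in lung control 5 (34 and 48) and lung Etv5KO 3 (49 and 33). The median of all genes in the 2 low AT2 libraries, Etv5KO 2 and control 2, was 0.02 and -0.01. Other short or abundant transcripts shifted alike: 48 cytosolic ribosomal protein genes had medians of -0.46 and -0.43, and 7 mitochondrially encoded subunits -0.59 and -0.56. Genes of bin 1 had -0.28 and -0.23 in these 2 libraries and those of bin 10 had 0.13 and 0.08. Member medians of lung libraries spread less, from -0.16 in lung control 2 to 0.12 in lung control 4. AT2 control 2 and AT2 Etv5KO 2 also had the lowest AT2 marker sums of their groups (165870 and 151098 CPM). Their sums of fibroblast (68.1 and 91.4 CPM) and macrophage markers (54.9 and 49.1 CPM) were the highest of their groups. Their endothelial sums (90.0 and 124 CPM) were not the highest. The part of length, abundance or cell types in the low values of these 2 libraries was not tested. The member median of the AT2 genotype comparison was 0.11 without Etv5KO 2, -0.05 without control 2 and -0.01 without Etv5KO 4, so its sign rests on single libraries.

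**Figure D5:**
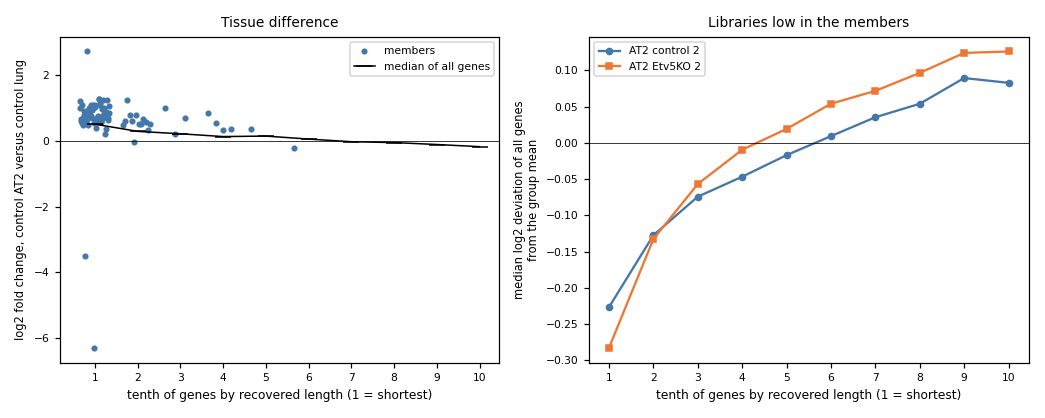
Left, log2 difference between control AT2 cells and control lung for members at a mean of at least 5 CPM (points) and the median of all genes (line) by bin of gene length, 1 being the shortest; right, median deviation of all genes from the group mean in the 2 AT2 libraries low in the members. The line falls from 0.51 to -0.18, and both libraries rise from below 0 in short genes to above 0 in long ones.

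Other genes of energy metabolism were read from lists of the pathway. In AT2 cells, where 5.03% of all genes rose and 4.84% fell, 3 of 23 regulators of respiratory genes fell and 0 rose: Ppargc1a, the coactivator PGC-1alpha that drives mitochondrial biogenesis, from 11.8 ± 1.56 to 8.51 ± 0.898 CPM (SD, n = 4 and 5; log2 -0.47, edgeR adjusted p = 0.0283), Sirt3, a mitochondrial deacetylase (-0.40), and Nrip1, a corepressor (-0.29). The list's median was -0.06. Nrf1, Gabpa and Tfam had values of 0.04, -0.00 and 0.07, none past the threshold. Of 22 genes of glycolysis and lactate handling 5 rose and 3 fell (median 0.01; 9.87% of all genes were called in either direction), among them Pkm, pyruvate kinase, which rose from 163 ± 5.08 to 210 ± 14.8 CPM (SD, n = 4 and 5; log2 0.37, edgeR adjusted p = 0.00323). Pdk3 (0.31), an inhibitor of pyruvate dehydrogenase, and Hk1 (0.27), hexokinase, also rose, and Ldhb, a lactate dehydrogenase subunit, fell by 0.64.

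Markers of cell types differed between the same AT2 libraries. Of 10 AT2 markers 2 fell by edgeR (median -0.28), where 4.84% of all genes fell and 5.03% rose. The sum of the 10 was 165870 to 258701 CPM in control and 151098 to 196340 CPM in Etv5KO AT2 libraries. Of 7 ciliated cell markers 2 rose (median 0.29), with sums of 114 to 131 and 171 to 227 CPM that did not overlap. The 5 fibroblast markers tested had values from 0.42 to 0.64, with sums of 39.6 to 68.1 and 48.4 to 91.4 CPM. By edgeR 0 of the 5 passed, and 2 had an unadjusted p under 0.05, against 3321 of 14939 genes. Of 6 macrophage markers 1 rose (median -0.21, values from -0.83 to 0.65). Of 7 endothelial markers 0 passed by edgeR or had an unadjusted p under 0.05 (median 0.26). At that unadjusted p there were 6 of 10 AT2, 3 of 7 ciliated and 4 of 6 macrophage markers, against 3321 of 14939 genes. The part of these cell types in the genotype values of the members and lists was not tested.

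Of 17 genes of pyruvate dehydrogenase and the citric acid cycle 1 fell in AT2 cells, Fh1 (fumarase, log2 -0.28). Of 42 assembly factors 1 fell, Coa7 (-0.39). Among all genes 4.84% fell and 9.87% were called in either direction. None of 13 fatty acid oxidation genes, 8 mitochondrially encoded subunits or 79 cytosolic ribosomal proteins passed by edgeR in AT2 cells. At an unadjusted p under 0.05 there were 0, 4 and 3, against 3321 of 14939 genes, and the medians were -0.00, -0.51 and -0.20. All 8 mitochondrially encoded subunits had values below 0, from -0.64 to -0.41, and 0 of their intervals lay within 1.5-fold. In lung none of the genes named here passed. For Ppargc1a, Pkm, Ldhb and Fh1 the difference between the effects in AT2 cells and lung did not pass by edgeR either, with adjusted p from 0.0983 for Pkm to 0.774 for Ppargc1a. Between control AT2 cells and control lung, 64 of 79 cytosolic ribosomal proteins (median 0.79), 16 of 17 citric acid cycle genes (0.51), 11 of 13 fatty acid oxidation genes (0.79) and 60 of 77 mitochondrial ribosomal proteins (0.43) were higher, against 35.6% of all genes. Of the members 82 of 91 were higher in the same comparison.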

How the data were processed

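Polyadenylated RNA was sequenced in 19 mouse libraries. The submitters' processing notes name GSNAP, without a version, and build mm9; annotation, counter and strand use were not given in the sources used here. Per the file headers, the deposited counts are reads aligned uniquely to a gene model, and the deposited nRPKM are RPKM values adjusted by the authors' size factor per library; they were used for levels per length and for gene length. Names came from RefSeq (31049 IDs) and GENCODE (78), covering 98.8% of counts. Each comparison was fitted on the counts of all genes with edgeR 4.0.16 (R 4.3.3; filterByExpr minimum count 10 and total 15, TMM, two-sided quasi-likelihood test, Benjamini-Hochberg, threshold 0.05); standard errors came from F. DESeq2 1.42.0, other scalings, no filter and leaving out libraries were alternatives, and the fit was tested on simulated data. Libraries within a group differed beyond counting noise (chi-square per degree of freedom 7.34 to 58.4), so none was a duplicate; beyond the design text nothing states separate animals, and p-values measure the spread between these libraries. Library numbers follow accession order and pair nothing. Deviations are of log2(CPM + 0.5) from the group mean.

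Members, lists and the rule for named genes were chosen with earlier results of these data known. The rule took members past a genotype test, the 10 with the smallest interaction p, up to 8 called higher and 8 called lower in control AT2 cells than lung (8 and 3 were found), isoform sets, catalytic subunits and the extremes of level; Etv5 and up to 4 called genes per related list. Other members named complete a short count and were chosen after their values were seen. The length bins, overlapping genes, printed promoters, bounds on shared 50-base stretches and the fit without both low AT2 libraries were added after seeing the values. Of the catalytic subunits the rule names, 1 is not reported here by name.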

Additional observations from a re-analysis of the deposited data

Results flagged for a closer look

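In 180 checks of 1 library against the others of its group (39 named members and 6 summed shares in 4 groups), 10 stood far from the rest by Dixon's test, where chance flags about 1 in 20. The number flagged is close to that rate. In AT2 Etv5KO 2 Atp5b was at 606 CPM against 654 to 671 CPM in the other 4 libraries, and Ndufb2 was at 23.5 CPM against 37.2 to 41.8 CPM. In AT2 control 2 Atp5g1 was at 1.65 CPM against 2.43 to 2.50 CPM, and Sdha at 240 CPM against 271 to 275 CPM. In AT2 control 1 Ndufs1 was at 79.4 CPM against 73.6 to 74.2 CPM, and in AT2 control 3 Atp5g2 was at 0.0866 CPM against 0.380 to 0.438 CPM. In lung control 2 Atp5g2 was at 0.0586 CPM against 0.288 to 0.370 CPM, and in lung control 4 Ndufc2 was at 44.7 CPM against 37.4 to 39.2 CPM. In lung Etv5KO 1 Ndufb11 was at 26.6 CPM against 27.4 to 27.7 CPM, and in lung Etv5KO 5 Uqcrfs1 was at 48.0 CPM against 52.2 to 52.9 CPM. Of the 10, 4 fell in the 2 AT2 libraries that were low in the members as a whole. Atp5g2 rests on 10 counts or fewer per library.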

How the results depend on the processing

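The number of members called between Etv5KO and control AT2 cells ran from 0 to 2 when 1 library was left out: 0 without control 1, control 2, control 3, Etv5KO 3 or Etv5KO 4 (and 1, Cox6a2, without both control 2 and Etv5KO 2), and 2 without Etv5KO 2, where Cox6a2 joined Cox4i2. With library size alone 1 member was called, Ndufv1 as a rise in place of Cox4i2. In lung the count was 0 in every leave-out fit, and for the interaction 0 as well, with 1 (Cox4i2) by DESeq2. Between AT2 cells and lung 81 to 88 members were called in controls and 81 to 89 in Etv5KO libraries with 1 library left out. In the main fits 74.5% and 78.0% of all genes were called. With library size alone the Etv5KO count was 53 (49 higher, 4 lower), as the median of all genes moved to -0.36. The share of all genes called under that scaling is not given here. That scaling turned the sign of Ndufs1 (-0.0504), Sdha (-0.0590) and Uqcrc1 (-0.0831) in controls and of Ndufs1 (-0.0707) and Uqcrc1 (-0.000874) in Etv5KO libraries; the cause was not tested. Of 555 values of 37 named members between AT2 cells and lung of controls, 535 kept their direction and side of the threshold, and of 560 of 35 in Etv5KO libraries 544 did. No paired analysis was possible because library numbers follow accession order and the labels do not tie AT2 to lung libraries. Depth limits Cox8b, Atp5g2, Atp5l, Ndufa4l2 and Cox4i2 in AT2 cells.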
